A study of Mus musculus with 22 samples.

Results

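The 9 genes described here are adipocyte regulators and lipid handling genes: Pparg, Cebpa, Cebpd, Fabp4, Lpl, Adipoq, Plin2, Mgll and Scara5. They were chosen as a set, with earlier results of these data known, out of 18193 measured genes, and every probe set that the array annotation gives to exactly 1 of them was used, 18 in all. Scara5 and Mgll were chosen because they differed between Wt1-null cells with and without the oncogene in these same arrays, so their values in that comparison, and in others that use those arrays, are given as a description with no test. All 9 genes had a probe set on the array.

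The cells were fibroblasts cultured from mouse embryos (MEFs), and their RNA, taken 7 days after adenoviral infection, was measured on Affymetrix expression arrays covering the mouse genome. The oncogene/Wt1-null group has 7 arrays of MEFs given Cre virus, which per the labels switched on a mutant oncogene allele and deleted Wt1, a zinc finger transcription factor. The oncogene group has 5 arrays of MEFs given Cre virus to switch on the oncogene behind a lox-stop-lox cassette, and the Wt1-null group has 5 arrays of MEFs that lost Wt1 through Cre virus. For that last group the virus is given in the design text, and the labels name Wt1f/f cells and Cre for replicates 1 and 2 but describe replicates 3, 4 and 5 only as Wt1-null. The control group has 5 arrays of MEFs labelled wild type and given a GFP virus. All groups received an adenovirus, but only the control received GFP in place of Cre, so in each comparison with the control the alleles and the virus cannot be told apart. The labels give neither the age of the embryos nor the origin of each replicate culture, so p-values measure only the spread between these arrays, which may be technical.

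White adipocytes form from fibroblast-like precursors through a cascade of transcription factors. C/EBPδ (Cebpd) acts early in it, and C/EBPα (Cebpa) and the nuclear receptor PPARγ (Pparg) then sustain each other and switch on genes of fat storage. Among those genes are the fatty acid carrier Fabp4, lipoprotein lipase (Lpl), which frees fatty acids from circulating triglyceride, and the hormone adiponectin (Adipoq). Plin2 coats lipid droplets in many cell types, Mgll is the lipase that cleaves monoacylglycerols, including an endocannabinoid, and Scara5 is a class A scavenger receptor that binds ferritin. MEFs are a common model of this cascade because they can be turned into adipocytes by hormonal induction, a treatment the labels do not mention.

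Levels are log2 values from RMA (robust multi-array averaging), in which a difference of 1 is a doubling of the signal. A level in the range of 3.65 to 5.06 counts as background here, since 3 Y-linked genes gave that range in 9 arrays with high Xist. It rests on few probe sets and lies below the median of all values, 6.27. A level above it does not by itself show expression. A Fabp4 probe set (1425809_at) that did not follow the main one (correlation 0.15) read 5.67 to 6.58, above background on all 22 arrays. Wt1-null replicate 2 nearly matched oncogene/Wt1-null replicate 2: the SD of their difference was 0.152 and their correlation 0.998. The next closest arrays of unlike groups had an SD of 0.285. For Wt1-null replicates 3 and 4 that SD was 0.161. The array least like the rest was oncogene/Wt1-null replicate 4. Its SD was 0.711 to 0.868 against the other arrays of its group, and 0.453 against its closest array, oncogene replicate 4. Differences of the 9 genes that involve the Wt1-null group are given with and without its replicate 2. Wt1 itself read 4.45 ± 0.19 in oncogene/Wt1-null (SD, n = 7), 4.59 ± 0.06 in oncogene (n = 5), 4.47 ± 0.15 in Wt1-null (n = 5) and 4.38 ± 0.10 in control arrays (n = 5), all within background, so it gave no check of the labels. The 12 fibroblast markers were all above background in every group. Of the 6 measured markers of mature adipocytes, Cidec and Lep were in background on all 22 arrays, and Adipoq was above it on 3. Retn, Slc2a4 and Lipe were above background on all 22 arrays. Of other cell types, 8 of 12 macrophage, 6 of 10 endothelial and 5 of 6 mesothelial markers were above background in every group, among them Csf1r, Cd14, Kdr and Ptprb on all 22 arrays. Ptprc, Itgam and C1qb of the macrophage list and Pecam1, Vwf and Emcn of the endothelial list were in background on all arrays. The mean of the mesothelial markers ran from 6.19 to 7.91 over oncogene/Wt1-null, 6.48 to 7.35 over oncogene, 6.25 to 7.27 over Wt1-null and 6.10 to 7.20 over control arrays, and the part of other cell types in the results was not tested. In bulk RNA, fewer cells of a type and less RNA per cell cannot be told apart.

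**Figure D1:**
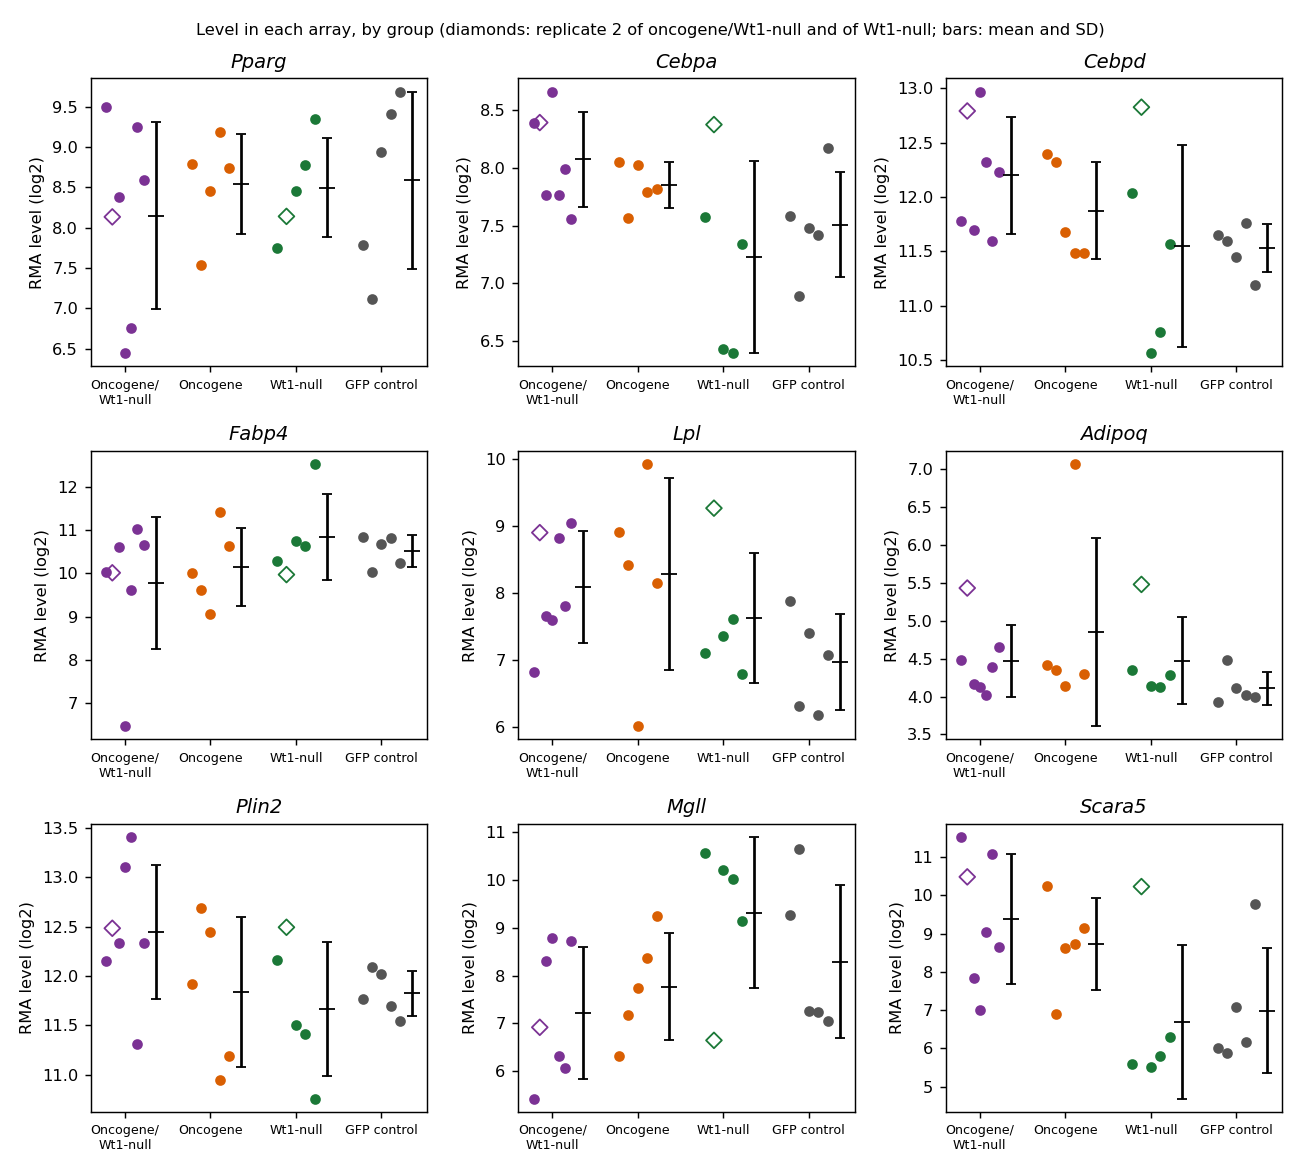
RMA level (log2, one panel a gene, each axis with its own range) of the 9 genes in each of 22 arrays by group, with bars for the group mean and SD; open diamonds are replicate 2 of oncogene/Wt1-null and of Wt1-null. The groups overlap for every gene, and Scara5 in Wt1-null replicate 2 reads 10.23 while the other 4 Wt1-null arrays read 5.52 to 6.29.

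Cebpd, the early regulator, was measured by a pair of probe sets that did not move together. Its main probe set (1423233_at) averaged 12.20 ± 0.54 in oncogene/Wt1-null arrays, 11.87 ± 0.45 in oncogene, 11.55 ± 0.93 in Wt1-null and 11.53 ± 0.22 in control arrays (SD, n = 7, 5, 5 and 5). The Wt1-null arrays ranged most widely, with replicate 2 at 12.83 above replicates 3 and 4 at 10.56 and 10.76. The second probe set (1456605_at) had a correlation of 0.11 with the first over 22 arrays. It read 6.53, 6.66, 6.57, 6.88 and 6.65 in oncogene arrays, against 5.93, 6.40, 6.36, 6.11 and 6.10 in control arrays, with no overlap. In a fit of each of 34945 single-gene probe sets, that was 0.48 ± 0.10 (SE) higher in oncogene arrays (limma, adjusted p = 0.020), and 0.34 ± 0.09 higher in oncogene/Wt1-null than in control arrays (adjusted p = 0.035). Wt1-null arrays, from 6.52 to 6.65, also lay above every control array, by 0.40 ± 0.10 (adjusted p = 0.176), so the means of all 3 groups given Cre lay above that of the GFP group. The main probe set passed in neither comparison, so the call for Cebpd differs with the probe set. With 1 probe set a gene, 2.04% of all genes were called in oncogene against control and 5.93% in oncogene/Wt1-null against control. Groups did not overlap for 5.94% of genes in oncogene against control. The share of all probe sets called in the fit of every probe set is not given here.

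Cebpa (1418982_at), the factor that sustains adipocyte identity with PPARγ, had its highest group mean in oncogene/Wt1-null arrays, while the groups overlapped. It ranged from 7.56 to 8.66 with a median of 7.99 over the 7 oncogene/Wt1-null arrays. Oncogene arrays read 8.05, 7.57, 8.03, 7.79 and 7.82, Wt1-null arrays 7.58, 8.38, 6.43, 6.40 and 7.35, and control arrays 7.58, 6.89, 7.48, 7.42 and 8.17. Wt1-null replicate 2 was the one Wt1-null array among the high arrays, and replicates 3 and 4 were the lowest of all 22. Means were 8.07 ± 0.41, 7.85 ± 0.20, 7.23 ± 0.83 and 7.51 ± 0.46 in oncogene/Wt1-null, oncogene, Wt1-null and control arrays.

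Pparg (1420715_a_at), the nuclear receptor at the centre of the cascade, showed no order of the groups beyond their spread. Its means were 8.15 ± 1.17 in oncogene/Wt1-null, 8.54 ± 0.62 in oncogene, 8.50 ± 0.61 in Wt1-null and 8.59 ± 1.10 in control arrays. Oncogene/Wt1-null arrays ranged from 6.44 to 9.50 and control arrays from 7.12 to 9.69, so the range within a group was larger than any gap between groups.

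The promoters of a pair of regulators that act on each other (Pparg and Cebpa), of the most adipocyte-restricted member (Adipoq) and of the lipase with the wide spread (Mgll) are shown from RefSeq (GRCm38.p6), from 250 bases before to 50 after the start site on the gene's strand, with motif matches in capitals. Pparg has 3 RefSeq starts, and the one shown is the most downstream; Mgll has 2, and the first is shown. Of the 9 genes, 5 matched a promoter entry, with 8 promoters among them.
Pparg, chr6:115421816-115422115 (+): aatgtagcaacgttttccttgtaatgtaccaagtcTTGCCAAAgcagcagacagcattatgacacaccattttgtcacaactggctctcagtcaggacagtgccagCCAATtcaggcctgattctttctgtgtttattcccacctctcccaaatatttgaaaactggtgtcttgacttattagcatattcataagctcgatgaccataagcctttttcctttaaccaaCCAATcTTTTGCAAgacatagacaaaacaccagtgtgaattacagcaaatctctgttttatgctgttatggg
Cebpa, chr7:35119043-35119342 (+): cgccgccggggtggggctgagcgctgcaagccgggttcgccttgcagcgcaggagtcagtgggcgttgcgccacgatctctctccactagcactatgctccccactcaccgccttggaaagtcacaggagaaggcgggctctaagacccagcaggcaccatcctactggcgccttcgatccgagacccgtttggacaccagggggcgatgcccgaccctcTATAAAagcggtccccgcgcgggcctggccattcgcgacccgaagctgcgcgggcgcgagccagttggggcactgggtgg
Adipoq, chr16:23146286-23146585 (+): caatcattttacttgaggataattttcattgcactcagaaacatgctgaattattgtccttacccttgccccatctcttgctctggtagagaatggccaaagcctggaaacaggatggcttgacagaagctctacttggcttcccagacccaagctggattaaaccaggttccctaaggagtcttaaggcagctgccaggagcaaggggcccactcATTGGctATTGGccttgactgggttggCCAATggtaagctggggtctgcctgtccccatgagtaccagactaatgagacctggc
Mgll, chr6:88724162-88724461 (+): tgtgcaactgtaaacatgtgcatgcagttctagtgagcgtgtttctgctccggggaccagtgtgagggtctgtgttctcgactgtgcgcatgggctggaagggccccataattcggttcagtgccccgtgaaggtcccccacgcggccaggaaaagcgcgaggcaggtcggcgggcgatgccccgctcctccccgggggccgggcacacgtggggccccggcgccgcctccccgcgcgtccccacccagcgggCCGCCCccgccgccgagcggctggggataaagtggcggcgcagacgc
The letters searched, on both strands, were the C/EBP-type TTNNGCAA (10.8% of 32851 promoters of the same length hold it), the nuclear receptor half-site AGGTCA (16.3%), CCAAT (37.4%), TATAAA (13.6%) and the GC box GGGCGG (35.7%). The Pparg window held TTNNGCAA at 2 places, starting at -215 and -16 counted from the start site, the only shown window with that motif. One of its CCAAT matches begins at -22, just upstream of the nearer C/EBP-type match. The Cebpa window held TATAAA at -30, the Adipoq window CCAAT in 3 places, and the Mgll window a single GC box. A match is a description of these letters, and GC content was 40.3% in the Pparg window against a median of 52.7% over all promoters.

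Fabp4 (1417023_a_at), a fatty acid carrier and a textbook PPARγ target, was high in nearly every array. It ran from 6.48 to 11.03 with a median of 10.04 in oncogene/Wt1-null arrays. Oncogene arrays read 10.01, 9.62, 9.07, 11.42 and 10.63, Wt1-null arrays 10.28, 9.97, 10.74, 10.64 and 12.52, and control arrays 10.85, 10.04, 10.67, 10.81 and 10.23. The low oncogene/Wt1-null array is replicate 4, with the next lowest at 9.61, and the groups overlap. Means were 9.78 ± 1.53 in oncogene/Wt1-null, 10.15 ± 0.91 in oncogene, 10.83 ± 0.99 in Wt1-null and 10.52 ± 0.36 in control arrays. A second probe set followed it closely (correlation 0.997), and 2 others, at 4.29 to 5.15 and 5.67 to 6.58, did not.

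Lpl (1415904_at) ranged from 6.82 to 9.04 with a median of 7.80 in oncogene/Wt1-null arrays. Oncogene arrays read 8.91, 8.42, 6.02, 9.92 and 8.15, Wt1-null arrays 7.10, 9.27, 7.36, 7.61 and 6.79, and control arrays 7.88, 6.32, 7.40, 6.18 and 7.07. Oncogene replicate 4 was the lowest of all 22 arrays while the other 4 oncogene arrays lay above every control array. Group means were 8.09 ± 0.84, 8.28 ± 1.44, 7.63 ± 0.97 and 6.97 ± 0.72 in oncogene/Wt1-null, oncogene, Wt1-null and control arrays.

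Adipoq (1422651_at), the most adipocyte-restricted gene of the set, was above background on 3 of 22 arrays. Those were oncogene/Wt1-null replicate 2 at 5.43, oncogene replicate 5 at 7.07 and Wt1-null replicate 2 at 5.48. All control arrays, from 3.93 to 4.49, were within background. Cd36, a fatty acid transporter that adipocytes also carry, was 5.28 in oncogene replicate 5 and at most 4.50 in the other 21 arrays, so that array was the highest of all for both genes. Of the 6 measured markers of mature adipocytes, which include Adipoq itself, 3 (Retn, Slc2a4 and Lipe) lay above background in each group. The mean level of those 6 ran from 5.53 to 5.93 over oncogene/Wt1-null, 5.51 to 6.19 over oncogene, 5.52 to 5.79 over Wt1-null and 5.50 to 5.76 over control arrays, with oncogene replicate 5 the highest. The part of adipocyte content in that array's values was not tested.

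Plin2 (1448318_at), the droplet coat protein, was bright everywhere. Its means were 12.45 ± 0.68 in oncogene/Wt1-null, 11.84 ± 0.76 in oncogene, 11.67 ± 0.68 in Wt1-null and 11.82 ± 0.23 in control arrays. The control arrays spanned only 11.54 to 12.09, within the ranges of 11.31 to 13.41, 10.95 to 12.69 and 10.76 to 12.49 of the oncogene/Wt1-null, oncogene and Wt1-null arrays.

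Mgll (1426785_s_at), the monoacylglycerol lipase, split the control arrays. Its widest gap between group means, second in the set to that of Scara5, lay between Wt1-null and oncogene/Wt1-null arrays. Both genes were chosen on that comparison, so this rank follows in part from the choice. Mgll ran from 5.43 to 8.79 with a median of 6.92 in oncogene/Wt1-null arrays. Oncogene arrays read 6.32, 7.18, 7.75, 8.37 and 9.24, Wt1-null arrays 10.57, 6.65, 10.21, 10.03 and 9.13, and control arrays 9.26, 10.64, 7.26, 7.25 and 7.04. All Wt1-null arrays but replicate 2 lay above every oncogene/Wt1-null array, and control replicates 1 and 2 lay with them. Means were 7.22 ± 1.37 in oncogene/Wt1-null, 7.77 ± 1.12 in oncogene, 9.32 ± 1.58 in Wt1-null and 8.29 ± 1.60 in control arrays. Of the 3 other probe sets, 2 followed this one with correlations of 0.988 and 0.985, and the third did not (0.12).

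Scara5 (1451204_at), the ferritin receptor, ran opposite to Mgll over the 22 arrays (Pearson -0.79), which follows in part from the choice of both. Over the 10 oncogene and control arrays, which the choice did not use, that correlation was -0.47. Scara5 ranged from 7.00 to 11.53 with a median of 9.05 in oncogene/Wt1-null arrays. Oncogene arrays read 10.25, 6.91, 8.64, 8.73 and 9.14, Wt1-null arrays 5.60, 10.23, 5.52, 5.81 and 6.29, and control arrays 6.01, 5.87, 7.08, 6.18 and 9.78. Wt1-null replicate 2 and control replicate 5 were high where the rest of their groups were low. Means were 9.38 ± 1.70 in oncogene/Wt1-null, 8.73 ± 1.20 in oncogene, 6.69 ± 2.0 in Wt1-null and 6.98 ± 1.63 in control arrays. Its second probe set stayed between 5.26 and 6.03 on all arrays and had a correlation of -0.05 with the first.

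Over the 22 arrays, the spread of each gene was wide against other genes: on a scale of percentiles of the SD among all genes, Fabp4 stood at 98.5, Lpl at 98.3, Pparg at 96.8, and Cebpa lowest at 86.7. Scara5 at 99.9 and Mgll at 99.7 were chosen for a difference within 12 of these arrays, which enters their SD. Between neighbours in the order of group means, the gap exceeded the larger of the 2 SDs for 1 gene only, Scara5 between oncogene and control arrays (1.75 against 1.63).

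In the oncogene group against the control, none of these genes passed the test. Lpl was 1.31 ± 0.60 higher in oncogene arrays (95% interval 0.06 to 2.56, limma, adjusted p = 0.303). Scara5 was 1.75 ± 0.99 higher (interval -0.31 to 3.81, adjusted p = 0.427) and Mgll -0.52 ± 0.85 (interval -2.28 to 1.24, adjusted p = 0.836), in a comparison that shares no array with the one they were chosen on. Without control replicate 5 Scara5 differed by 2.45. Adipoq was in background on all control arrays and on 4 of 5 oncogene arrays, so its 0.74 ± 0.42 (0.19 without oncogene replicate 5) is not a measured change. The regulators differed by -0.048 ± 0.56 for Pparg, 0.34 ± 0.31 for Cebpa and 0.34 ± 0.35 for Cebpd, and Fabp4 by -0.37 ± 0.66 and Plin2 by 0.015 ± 0.38 (adjusted p of 0.658 or more). The sample numbers fall into 3 sets, whose link to handling the labels do not state, and within the 4 oncogene and 4 control arrays of set 3 the differences were 1.38 for Lpl, 1.13 for Scara5, 0.81 for Adipoq and 0.087 for Mgll. Of the 9 genes, 0 were called by limma at an adjusted p below 0.05, against 2.04% of all genes, and 1 (Lpl) passed an unadjusted p below 0.05, against 15.0% of all genes. Of the 9, 0 had groups that did not overlap, against 5.94%.

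In Wt1-null against control, none of the genes besides Scara5 and Mgll passed the test, and that pair is given as a description. Mgll differed by 1.03 ± 0.85 and Lpl by 0.66 ± 0.60 (adjusted p = 0.665), and Scara5 by -0.29 ± 0.99, which was 0.41 without control replicate 5. The regulators Cebpa (-0.28 ± 0.31), Cebpd (0.02 ± 0.35) and Pparg (-0.09 ± 0.56) had adjusted p of 0.729, 0.986 and 0.959. Fabp4 was 0.31 ± 0.66 and Plin2 -0.16 ± 0.38, and Adipoq 0.37 ± 0.42, with 4 of 5 Wt1-null arrays in background. Without Wt1-null replicate 2, Mgll was 1.70, Lpl 0.24, Scara5 -1.18, Cebpa -0.57, Cebpd -0.30, Pparg -0.0033, Fabp4 0.52, Plin2 -0.36 and Adipoq 0.11, with 0 called. Set 2 holds 3 Wt1-null arrays and 1 control array, and within it Pparg was 1.08, Cebpd -0.69 and Lpl -0.63, opposite in sign to the values over all arrays. Of the 9 genes, 0 were called by limma, against 0.104% of all genes, 0 passed an unadjusted p below 0.05, against 12.7%, and 0 did not overlap, against 5.68%.

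Oncogene/Wt1-null against control gave the highest number of called genes over the whole array, 5.93%. It called 0 of the 7 genes besides Scara5 and Mgll by limma. Of those 7, 0 passed an unadjusted p below 0.05, against 20.1% of all genes. Scara5 was 2.40 ± 0.92 higher and Mgll differed by -1.07 ± 0.78, as a description. Among the tested genes Lpl was 1.12 ± 0.56 (adjusted p = 0.267), Cebpd 0.67 ± 0.33 (adjusted p = 0.260), Plin2 0.62 ± 0.35 (adjusted p = 0.340) and Cebpa 0.57 ± 0.29 (adjusted p = 0.279). Fabp4 was -0.74 ± 0.61 (adjusted p = 0.547), and -0.19 without oncogene/Wt1-null replicate 4. Pparg was -0.44 ± 0.52 and Adipoq, in background on 6 of 7 oncogene/Wt1-null arrays, 0.36 ± 0.39. Within set 3, Lpl was 1.35, Cebpd 0.70, Plin2 0.61 and Scara5 2.15. Groups did not overlap for 0 of the 9, against 4.28% of all genes. Of 12 macrophage and 10 endothelial markers, 1 of each list was called higher in oncogene/Wt1-null arrays. Their mean levels ran from 5.57 to 5.93 and 5.50 to 5.89 in oncogene/Wt1-null arrays, against 5.43 to 5.68 and 5.44 to 5.64 in control arrays, and their part in the members' values was not tested.

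Oncogene/Wt1-null against oncogene, 2 groups that both received Cre, called 0 genes of the array (0%; limma). Of the 7 genes besides Scara5 and Mgll, 0 passed an unadjusted p below 0.05, against 3.09% of all genes. Plin2 was 0.61 ± 0.35, Cebpd 0.32 ± 0.33, Cebpa 0.22 ± 0.29, Lpl -0.19 ± 0.56, Fabp4 -0.37 ± 0.61, Pparg -0.39 ± 0.52 and Adipoq -0.39 ± 0.39. As a description, Mgll was -0.55 ± 0.78 and Scara5 0.64 ± 0.92. Leaving out 1 array at a time gave -0.91 (without oncogene replicate 1) to -0.18 (without oncogene replicate 6) for Mgll and 0.19 (without oncogene replicate 3) to 1.04 (without oncogene/Wt1-null replicate 4) for Scara5. Groups of 0.0879% of all genes, and of 0 of the 9, did not overlap.

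Oncogene/Wt1-null against Wt1-null is the comparison on which Scara5 and Mgll were chosen, and both groups received Cre. All oncogene/Wt1-null arrays are of set 3 and no Wt1-null array is, so genotype and sample set cannot be told apart here. With all arrays Scara5 was 2.69 ± 0.92 higher and Mgll differed by -2.10 ± 0.78. Cebpa was 0.85 ± 0.29 higher (interval 0.25 to 1.44, limma, adjusted p = 0.175), Plin2 0.78 ± 0.35 (adjusted p = 0.303), Cebpd 0.65 ± 0.33 (adjusted p = 0.364) and Fabp4 -1.05 ± 0.61 (adjusted p = 0.428). Lpl was 0.47 ± 0.56, Pparg -0.35 ± 0.52 and Adipoq -0.0079 ± 0.39. Of the 7 genes besides the chosen pair 0 were called, against 0.0824% of all genes. Of those 7, 2 (Cebpa and Plin2) passed an unadjusted p below 0.05, against 14.8% of all genes. Groups of 0 of the 9 did not overlap, against 0.923%.

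Leaving out Wt1-null replicate 2 moved the same comparison. Cebpa was then 1.13 ± 0.26 higher (limma, adjusted p = 0.0135), Cebpd 0.97 ± 0.30 (adjusted p = 0.063) and Plin2 0.99 ± 0.36 (adjusted p = 0.122). Fabp4 was -1.27, Lpl 0.88, Pparg -0.43 and Adipoq 0.24, and 5.08% of all genes were called. Scara5 differed by 3.57 ± 0.83 and Mgll by -2.76 ± 0.75, as a description, and the groups of both did not overlap, as for 5.65% of all genes. With replicate 2 of both groups left out, Cebpa was 1.08 ± 0.27 (adjusted p = 0.0291) and 3.69% of genes were called; with Wt1-null replicate 2 left out and replicates 3 and 4 averaged, Cebpa was 0.96 ± 0.27 (adjusted p = 0.0778) and 1.95% were called. The call for Cebpa therefore differs with the arrays used.

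The interaction subtracts the oncogene-minus-control difference from the oncogene/Wt1-null minus Wt1-null difference. It called 0 of the 7 genes besides Scara5 and Mgll by limma, against 0.011% of all genes. Of those 7, 0 passed an unadjusted p below 0.05, against 8.55%. The lowest adjusted p among those was 0.639, for Plin2 at 0.76 ± 0.51, and the others were 0.50 ± 0.42 for Cebpa, 0.30 ± 0.48 for Cebpd, -0.30 ± 0.77 for Pparg, -0.68 ± 0.89 for Fabp4, -0.75 ± 0.58 for Adipoq and -0.84 ± 0.82 for Lpl. As a description, Mgll was -1.58 ± 1.15 and Scara5 0.94 ± 1.35. Without Wt1-null replicate 2, the values were 0.97 for Plin2, 0.79 for Cebpa, 0.62 for Cebpd, -0.39 for Pparg, -0.89 for Fabp4, -0.50 for Adipoq, -0.43 for Lpl, -2.24 for Mgll and 1.82 for Scara5. This contrast contains the control arrays, and with them the change of virus.

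**Figure D2:**
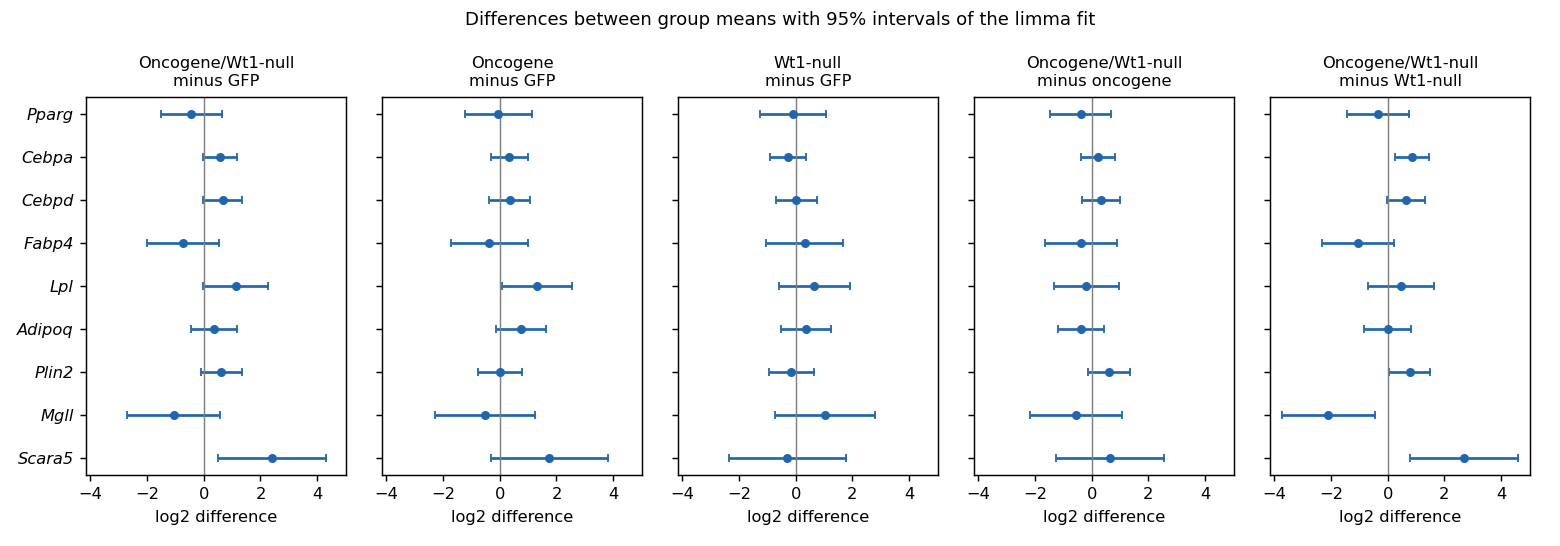
Log2 difference between group means with 95% intervals from the limma fit, for the 9 genes in 5 comparisons. Most intervals span 0; those of Scara5 and Mgll in the right panel were chosen on that comparison and are a description.

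**Figure D3:**
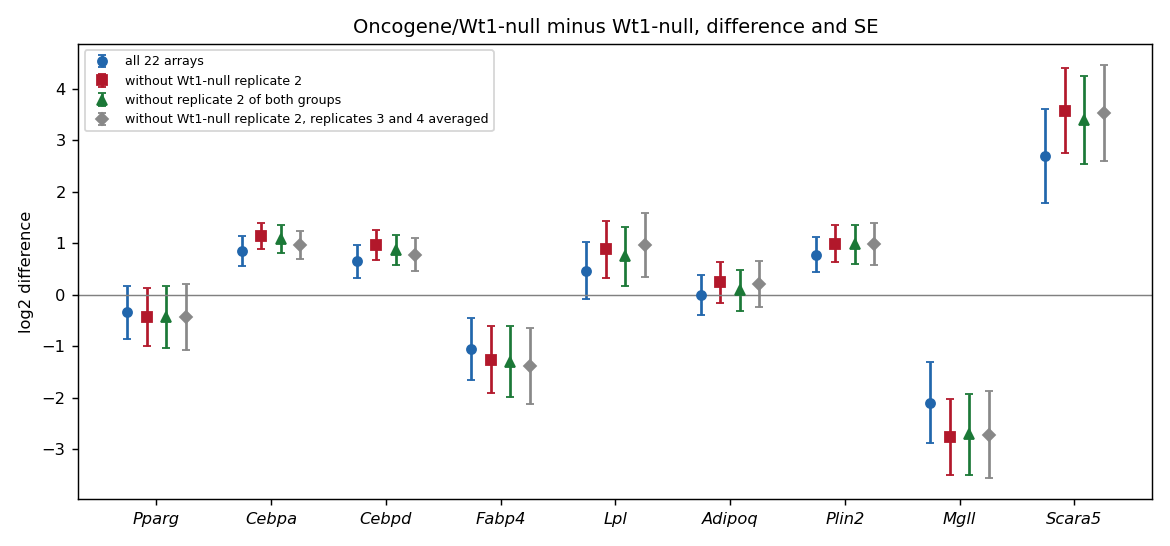
Log2 difference (with SE) of oncogene/Wt1-null minus Wt1-null for the 9 genes with all 22 arrays and with 3 sets of arrays left out or averaged. Cebpa is 0.85 with all arrays and 1.13 without Wt1-null replicate 2.

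Scara5 and Mgll ran opposite to each other across arrays (Pearson -0.79, Spearman -0.83, 22 arrays), within the oncogene/Wt1-null arrays (-0.88, n = 7) and around the group means (-0.74), and it was -0.72 without the 2 arrays farthest on Scara5 and -0.78 without Wt1-null replicate 2. Both were chosen for opposite differences within 12 of these arrays, so part of this correlation follows from the choice. Over the 10 oncogene and control arrays, which the choice did not use, it was -0.47. Plin2 and Fabp4 ran opposite too (Pearson -0.76, Spearman -0.82; -0.73 around the group means, -0.74 without the 2 arrays farthest on Plin2, -0.76 without Wt1-null replicate 2 and -0.81 over the 10 oncogene and control arrays). Plin2 and Pparg gave -0.73, and Pparg and Fabp4 0.65, which was 0.45 without the 2 arrays farthest on Fabp4. Cebpa went with Cebpd (0.71) and Scara5 (0.72) and against Mgll (-0.65). These pairs were picked from 36 after seeing the values and carry no p, and the arrays share 1 normalization.

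**Figure D4:**
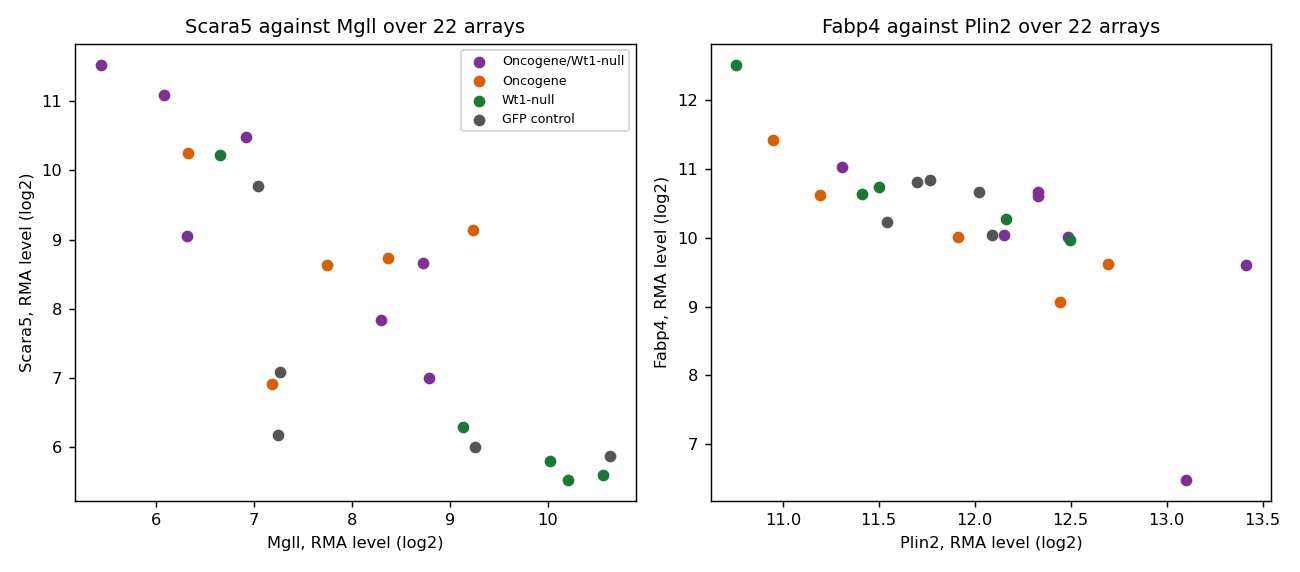
RMA levels of Scara5 against Mgll (left) and Fabp4 against Plin2 (right) over 22 arrays, coloured by group. Both pairs ran opposite to each other, with Pearson correlations of -0.79 and -0.76. Scara5 and Mgll were chosen for opposite differences in part of these arrays. Over the 10 oncogene and control arrays, which the choice did not use, their correlation was -0.47.

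The genes whose levels followed each member most closely are given by the Pearson correlation of representative probe sets over the 22 arrays, as a description. Pparg was followed by Brip1os (0.856), Arsj (0.853) and Fbxo2 (0.850). For Cebpa they were Fam43a (0.915), Tbc1d2b (0.915) and Cd2bp2 (0.899). The nearest to Cebpd were Nppc (0.871), Marcksl1 (0.867) and Slit3 (0.858). Fabp4 was followed by Rab8b (0.924), Tmx1 (0.924) and Cul4b (0.920). For Lpl they were Clca3a1 (0.847), Nfkbiz (0.839) and Pde3b (0.820). The nearest to Adipoq were Cd36 (0.763), Csmd2os (0.675) and Il13ra2 (0.663). Plin2 was followed by Ctxn1 (0.939), Frmd8 (0.938) and Prr13 (0.929). For Mgll they were Slc20a1 (0.908), Adam12 (0.871) and Klhl30 (0.867). The nearest to Scara5 were Csad (0.909), Cmpk2 (0.904) and Sned1 (0.889). The likeness of Adipoq and Cd36 turns on oncogene replicate 5, the highest array for both.

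Other genes of the pathway were read from lists, with the count called higher and lower. The lists were chosen with earlier results of these data known, so their counts are a description in every comparison. Of all genes, 2.04% were called in oncogene against control and 15.0% passed an unadjusted p below 0.05. Against control, oncogene arrays had 1 adipogenic regulator higher and 1 lower of 32 (11 at an unadjusted p below 0.05). Of mature adipocyte and PPARγ target genes, 0 of 25 were called (3 unadjusted, median -0.06). Of droplet and lipolysis genes, 0 of 18 were called (4 unadjusted, median -0.16), beside a median over all genes of -0.03. Lipase partners and uptake genes had 1 of 14 called (4 unadjusted), scavenger and ferritin genes 0 of 10 (1 unadjusted) and progenitor markers 5 of 18 (7 unadjusted). Dlk1, which holds precursors back from becoming adipocytes, rose by 3.87 ± 0.43 (adjusted p = 8.9e-05), and the uptake receptor Lrp1 by 1.69 ± 0.31 (adjusted p = 0.0085). Ddit3, a C/EBP family member that inhibits the others, fell by 1.56 ± 0.29 on the log2 scale (adjusted p = 0.0092). The progenitor markers Cd34 and Icam1 rose by 3.37 ± 0.60 (adjusted p = 0.0065) and 2.35 ± 0.44 (adjusted p = 0.0089).

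In oncogene/Wt1-null against control, 2 of 32 regulators were called higher and 2 lower, among mature adipocyte and PPARγ target genes 1 higher and 1 lower of 25, of droplet and lipolysis genes 1 of 18, of lipase partners 1 higher and 2 lower of 14, of scavenger genes 1 lower of 10, and of progenitor markers 5 of 18. Of all genes 5.93% were called here and 20.1% passed an unadjusted p below 0.05. By that unadjusted measure the lists had 11 of 32 regulators, 4 of 25 mature adipocyte and PPARγ target genes and 4 of 18 droplet and lipolysis genes. They also had 6 of 14 lipase partners and uptake genes, 6 of 10 scavenger and ferritin genes and 9 of 18 progenitor markers. Dlk1, Cd34 and Icam1 were called higher here too, Dlk1 by 2.74 ± 0.40 (adjusted p = 0.00056), Cd34 by 3.22 ± 0.55 (adjusted p = 0.0021) and Icam1 by 3.09 ± 0.41 (adjusted p = 0.00024). Lrp1 rose by 1.75 ± 0.29 (adjusted p = 0.0017) and Gata3, a repressor of adipogenesis, by 1.11 ± 0.27 (adjusted p = 0.016), while Ddit3 fell by 1.29 ± 0.27 on the log2 scale (adjusted p = 0.0079). This comparison and the one before it share the control arrays. Lpin1, a phosphatidate phosphatase of triglyceride synthesis, rose by 1.34 ± 0.35 (adjusted p = 0.027), with 9.59 ± 0.46 in oncogene/Wt1-null and 8.25 ± 0.43 in control arrays. The fatty acid carrier Fabp5 fell by 1.05 ± 0.28 on the log2 scale (adjusted p = 0.029), with 12.24 ± 0.62 in oncogene/Wt1-null and 13.29 ± 0.31 in control arrays. Dagla, which makes the endocannabinoid that Mgll cleaves, rose by 0.92 ± 0.26 (adjusted p = 0.044). Scarb1, a lipoprotein receptor, and Vldlr fell by 0.76 ± 0.19 (adjusted p = 0.020) and 0.95 ± 0.23 (adjusted p = 0.019). Wt1-null against control called 0 genes of these lists by limma (1 to 5 of each list at an unadjusted p below 0.05, against 12.7% of all genes), and oncogene/Wt1-null against oncogene also 0 (0 to 2 of each, against 3.09%). Oncogene/Wt1-null against Wt1-null called 1 of 18 progenitor markers, Icam1, higher by 2.29 ± 0.41 (limma, adjusted p = 0.039), against 0.0824% of all genes. Icam1 read 9.56 ± 0.43 in oncogene/Wt1-null and 7.27 ± 1.28 in Wt1-null arrays, where the highest array was 9.52. An unadjusted p below 0.05 was reached there by 9 of 18 progenitor markers, 8 of 32 regulators and 6 of 25 mature adipocyte and PPARγ target genes. So did 3 of 18 droplet and lipolysis genes, 5 of 14 lipase partners and uptake genes and 3 of 10 scavenger and ferritin genes, against 14.8% of all genes. In the interaction, 0 were called (0 to 5 of each list unadjusted, against 8.55% of all genes).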

How the data were processed

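The deposited values are log2 signals that the authors made by RMA in Affymetrix Expression Console, per the submitters' processing notes and per the design text. RMA subtracts background and sets all arrays to a common distribution, so a change shared by most transcripts would not show. Its version is not given in the sources used here. Signals lay between 3.29 and 15.14, and array medians between 6.23 and 6.33. Precision is limited by how few arrays there are, 22. Of 6 oncogene arrays in the design text, 5 are analysed here. The name of the oncogene is not reported here.

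The table held 45101 probe sets. A platform annotation gave 1 gene to 34945, several to 932 and none to 9160, besides 64 controls, and 34741 of those with 1 gene matched RefSeq (GRCm38.p6) by gene ID. The array carries no genome build. For each of 18193 genes the brightest probe set on average stood for the gene. Means of the 4 groups were fitted over all arrays with limma 3.58.1 under R 4.3.3 (functions lmFit, contrasts.fit and eBayes), with Benjamini-Hochberg adjustment over all genes and calls at an adjusted p below 0.05. The fit was tested on simulated data.

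The members and lists were chosen with earlier results of these data known. Named genes were all members in every comparison, up to 3 called genes per list and comparison with the smallest p, and the 3 genes most correlated with each member. Alternatives tried were other ways of joining probe sets, a filter on dim genes, scaling, variance models and array weights. Blocks by replicate number or by sample-number set (runs of neighbouring sample numbers) were also tried. So were fits of only the groups compared, and leaving out or averaging arrays. Leaving out Wt1-null replicate 2 with replicates 3 and 4 averaged was chosen after seeing the data, as were the correlations without that array and over the oncogene and control arrays.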

Additional observations from a re-analysis of the deposited data

Results flagged for a closer look

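A lone array far from the rest of its group was found in 4 of 36 groups of values tested (9 genes in 4 groups); chance gives about 1 in 20. Fabp4 read 6.48 in oncogene/Wt1-null replicate 4, against 9.61 to 11.03 in the other 6 arrays of that group. This was also the array least like the rest over all probe sets. It was the lowest of all arrays for Pparg (6.44) and the highest for Cebpa (8.66) and Cebpd (12.97). Adipoq read 7.07 in oncogene replicate 5, against 4.14 to 4.42 in the other 4. Wt1-null replicate 2 read 5.48 for Adipoq, where the other 4 arrays of its group read 4.13 to 4.35, and 10.23 for Scara5, where they read 5.52 to 6.29. That array is the one nearly identical to oncogene/Wt1-null replicate 2, which read 5.43 for Adipoq and 10.48 for Scara5. Why these arrays stood apart was not tested.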

How the results depend on the processing

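Over 54 differences of the 9 genes and all alternatives, 1894 of 1965 values kept their direction and their side of the threshold, 17 passed it newly (12 with array weights), and 54, in 16 differences, changed sign. In oncogene against control, Pparg was 0.024 with the sample-number set as a block. There Plin2 was -0.36 with array weights, -0.16 with that block, -0.017 within set 3 and -0.14 without oncogene replicate 4 and oncogene/Wt1-null replicate 4. Mgll in the same comparison was 0.51 with array weights and 0.087 within set 3. In Wt1-null against control, Pparg was 0.19 with the block and 1.08 within set 2, Cebpd -0.61 with array weights, -0.30 with the block, -0.69 within set 2, -0.11 with Wt1-null replicates 3 and 4 averaged and replicate 2 left out, and -0.30 without replicate 2 of both groups, and Lpl -0.11 with the block and -0.63 within set 2. Lpl in oncogene/Wt1-null against oncogene was 0.065 with the block. Adipoq in oncogene/Wt1-null against Wt1-null was 0.33 with array weights, 0.038 with the replicate block, 0.050 without both replicates 4, 0.21 with the averaged arrays and 0.083 without both replicates 2. In the interaction, Cebpd was -0.12 with the mean of all probe sets and Lpl 0.18 with the sample-number block. The cause of these sign changes was not tested. Of the 17 newly past the threshold, 8 are Scara5 or Mgll in comparisons that use arrays they were chosen on, and are a description.

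Leaving out 1 array at a time gave, in oncogene against control, -0.42 to 0.23 for Pparg, -0.20 to 0.24 for Plin2 and -0.89 to 0.069 for Mgll. In Wt1-null against control it gave -0.46 to 0.18 for Pparg, -0.30 to 0.27 for Cebpd, -0.11 to 0.52 for Fabp4, -0.36 to 0.069 for Plin2 and -1.18 to 0.41 for Scara5. In oncogene/Wt1-null against oncogene it gave -0.64 to 0.18 for Fabp4, -0.75 to 0.22 for Lpl and -0.56 to 0.17 for Adipoq, in oncogene/Wt1-null against Wt1-null -0.17 to 0.24 for Adipoq, and in the interaction -0.57 to 0.071 for Pparg. Members called stayed at 0 in 5 comparisons and ran from 0 to 3 in oncogene/Wt1-null against Wt1-null. The 3 were Cebpa and, as a description only, the pair chosen on that comparison.

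Members called were 1, 2, 2, 0, 5 and 2 with array weights (oncogene against control, Wt1-null against control, oncogene/Wt1-null against control, against oncogene, against Wt1-null, and interaction), where 4417, 6016, 6036, 0, 3501 and 2748 of all genes were called, against 371, 19, 1078, 0, 15 and 2 without weights. Among them Lpl was 1.90 in oncogene against control (adjusted p = 0.0036) and 1.65 in oncogene/Wt1-null against control (adjusted p = 0.0042), and Cebpa -0.78 in Wt1-null against control (adjusted p = 0.011). In oncogene/Wt1-null against Wt1-null, Cebpa was 1.19, Cebpd 1.16 and Plin2 0.85 (adjusted p = 0.0016, 0.0042 and 0.029). The rest of these counts are Plin2 in the interaction (1.21, adjusted p = 0.041) and, as a description, Scara5 or Mgll. Wt1-null replicates 3 and 4, whose difference had an SD of only 0.161, entered the weighted fit as separate arrays. Why array weights raised the counts so far was not tested. With every probe set tested, members called were 1 in oncogene against control and 1 in oncogene/Wt1-null against control. Both calls are Cebpd by its second probe set, and the share of all probe sets called in that fit is not given here. Without replicate 2 of both groups, members called were 2 in oncogene/Wt1-null against Wt1-null: Cebpa and, as a description only, Scara5, which was chosen on that comparison. Same-numbered arrays deviated together in some pairs and not in others. Correlations ran from -0.14 to 0.77 in oncogene/Wt1-null against oncogene, with 0.77 for replicates 4 and 0.62 for replicates 6. They ran from -0.40 to 0.60 (replicates 2) in oncogene/Wt1-null against Wt1-null, and from -0.47 to 0.00 in oncogene/Wt1-null against control. The labels do not state whether same-numbered arrays share a source, and the main fit treats all arrays as independent. With the replicate block 0 members were called in each comparison, and 308, 20, 1136, 0, 0 and 1 of all genes. No within-set fit could be made for oncogene/Wt1-null against Wt1-null or the interaction, since no set held all their groups.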
